A study of Mus musculus with 44 samples.

Results

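Per1, Per2 and Per3, the 3 Period genes of the circadian clock, were examined in mouse kidney. They were chosen by name, as 3 of the 24733 genes with any value above 0, together with the 13 of 88198 transcripts that the annotation assigns to them. Polyadenylated RNA was measured in 24 kidney libraries from 129SV mice aged 8 to 12 weeks, all on night-restricted feeding. The mice were wild type (WT) or carried a knockout of Bmal1 (KO, named Bmal -/- in the series' design text, gene symbol Arntl), and the tissue or tissues in which the gene was deleted are not given in the sources used here. Kidneys were taken at zeitgeber time (ZT, hours on the light schedule) 0, 4, 8, 12, 16 and 20, with 2 libraries, A and B, in each of the 12 groups. Nothing in the labels says that A and B came from separate animals, so p-values measure the spread between these libraries, which may be technical.

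Period proteins are the repressing arm of the clock. BMAL1, paired with CLOCK or NPAS2, binds E-box sequences in DNA and raises transcription of the Period and Cryptochrome genes, whose proteins then bind that pair and lower its activity. The Period genes also carry sites for other regulators: D-box sites bound by DBP, TEF, HLF and NFIL3, and in Per1 and Per2 sites for CREB and the glucocorticoid receptor, through which signals from outside a cell can reach the clock. PER1 and PER2 carry most of the repressing function, and loss of PER3 alone has a mild effect on behavioural rhythms.

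The files hold TPM, a length-corrected share of each library's RNA, with column totals of 999999 to 1000001, so depth cannot be read from them. Markers of kidney segments were present in all libraries. The summed level of 4 proximal tubule genes was 1736 to 2033 TPM in WT and 1794 to 2389 in KO. Of the 4, 1 was called higher in KO, and under median-of-ratios scaling 1 was higher and 1 lower. Calls of other markers stand beside 50.9% of all genes called higher in KO and 10% called lower. Collecting duct genes summed to 102 to 189 TPM in WT and 139 to 370 in KO (3 of 3 called higher), podocyte genes to 50.1 to 70.9 and 68.3 to 99.4 (3 of 3 higher), and distal convoluted tubule genes to 167 to 231 and 174 to 315 (2 of 2 higher, 1 under median-of-ratios scaling). Thick ascending limb genes summed to 1140 to 1737 in WT and 1183 to 1432 in KO (1 higher, 1 lower). Endothelium genes summed to 57.35 to 82.5 and 54.5 to 94.0 (1 of 3 higher, and 1 higher and 1 lower under that scaling). Immune cell genes summed to 4.81 to 10.1 and 4.81 to 7.61 (0 called, 1 lower under that scaling). Collecting duct, podocyte and thick ascending limb counts were the same under that scaling. Over all genes it gave 2761 of 12861 higher in KO and 2913 lower. A set of 4 liver genes summed to 428 to 943 TPM in WT and 80.8 to 350 in 11 KO libraries (2 of 3 tested called lower), with 516 in the library labelled KO ZT4 A. Adrenal cortex genes summed to at most 1.45 TPM and fat genes to at most 6.47 TPM. The part of these markers in the results was not tested. Arntl, the targeted gene, held 0.295 to 12.9 TPM over the 12 WT libraries and 4.19 to 6.28 TPM over the 12 KO libraries, so its RNA was still present in KO without the WT swing. The library labelled KO ZT4 A went against its label. Its Cry1 level was 1.03 TPM, near the WT pair of that time (1.20 and 0.845) and below the 11.5 to 17.8 TPM of the remaining 11 KO libraries. Its Nr1d1 level was 23.9 TPM, and those 11 held 1.24 to 3.46. It was kept under its label, and values without it are given beside the Period calls that it changed.

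Sequence upstream of the annotated starts is shown because the genotypes differ in BMAL1, which binds E-boxes. Dbp and Tef, whose proteins bind D-boxes, were also among the genes most correlated with Per3 below. Whether any of these proteins acted on the Period genes here was not tested. RefSeq's table (GRCm38.p6) held entries for 2 of the 3 genes, with 2 start sites for Per1 and 1 for Per3. It held none for Per2. Each run below covers the bases from 250 to 11 before a start, 240 bases in all, read 5′ to 3′ on the gene's own strand. Capitals mark the matches of these searches, made on both strands: CACGTG (E-box), CACGTT (a weaker E-box form), TTATGTAA (D-box), TTATGCAA (a form related to the D-box), TGACGTCA (the full CREB site), TGACGTC (which the full CREB site contains) and GAANNTTC (a heat shock element core).
Per1 upstream start, chr11:69098699-69098938, plus strand: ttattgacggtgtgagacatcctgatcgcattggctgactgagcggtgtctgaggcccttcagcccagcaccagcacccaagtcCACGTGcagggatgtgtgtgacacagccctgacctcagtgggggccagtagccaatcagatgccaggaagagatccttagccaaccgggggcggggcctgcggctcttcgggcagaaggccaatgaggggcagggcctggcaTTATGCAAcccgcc
Per1 downstream start, chr11:69099902-69100141, plus strand: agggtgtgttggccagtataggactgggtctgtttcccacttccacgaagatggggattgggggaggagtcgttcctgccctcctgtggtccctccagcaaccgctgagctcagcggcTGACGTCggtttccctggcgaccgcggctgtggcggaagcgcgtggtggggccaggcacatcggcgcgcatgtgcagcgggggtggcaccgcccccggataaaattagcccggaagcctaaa
Per3, chr4:151044676-151044915, minus strand: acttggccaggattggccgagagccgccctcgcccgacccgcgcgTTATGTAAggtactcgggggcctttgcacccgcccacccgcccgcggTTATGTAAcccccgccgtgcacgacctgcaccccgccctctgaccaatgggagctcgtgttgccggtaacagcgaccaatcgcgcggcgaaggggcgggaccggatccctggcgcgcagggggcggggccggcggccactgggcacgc
The upstream Per1 window held 1 CACGTG, from base -166 to -161 before the start, and 1 TTATGCAA from -24 to -17. Of 32851 windows of this length, 5.69% held CACGTG and 0.679% held TTATGCAA. The downstream Per1 window held 1 TGACGTC, from -132 to -126, letters found in 2.57% of windows. The Per3 window held TTATGTAA at 2 places, from -205 to -198 and from -158 to -151. At least 1 TTATGTAA was found in 0.807% of windows and 2 or more in 6 windows (0.0183%). These searches were chosen after the Per3 sequence had been seen, and a match is a description of letters and no evidence of binding.

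Per3 was the Period gene that lost most of its expression in KO kidneys. Per3 (ENSMUSG00000028957, GRCm38 chromosome 4, 151003652 to 151044665, minus strand) rose in WT from its trough at ZT0 to its highest levels at ZT8 and ZT12. The WT libraries A and B held 1.41 and 1.79 TPM at ZT0, 2.08 and 2.95 at ZT4, 8.74 and 10.98 at ZT8, 10.9 and 10.1 at ZT12, 7.26 and 8.21 at ZT16, and 2.24 and 2.56 at ZT20. The KO libraries held 1.69 and 1.36 TPM at ZT0, 2.24 and 1.67 at ZT4, 1.36 and 1.77 at ZT8, 1.92 and 2.02 at ZT12, 1.19 and 1.73 at ZT16, and 1.25 and 1.16 at ZT20. All 12 KO values lay within 1.16 to 2.24 TPM, next to 1.41 to 2.95 TPM in WT kidneys at ZT0 and ZT4. The groups did not overlap at ZT8, ZT12, ZT16 or ZT20. With 2 libraries in each group such separation is frequent without any genotype difference, and its share over all genes was not computed. The WT mean was 6.31 times the KO mean at ZT8, 5.33 times at ZT12 and 5.31 times at ZT16, while at ZT0 it was 1.05 times. With the 12 group means placed in order, neighbours did not overlap at 3 of 11 steps: WT ZT12 and ZT8 overlapped at the top, and all 6 KO groups fell below WT ZT20, where they and WT ZT0 each overlapped the next in order. In these bulk samples fewer cells making a transcript and less transcript per cell cannot be told apart.

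**Figure D1:**
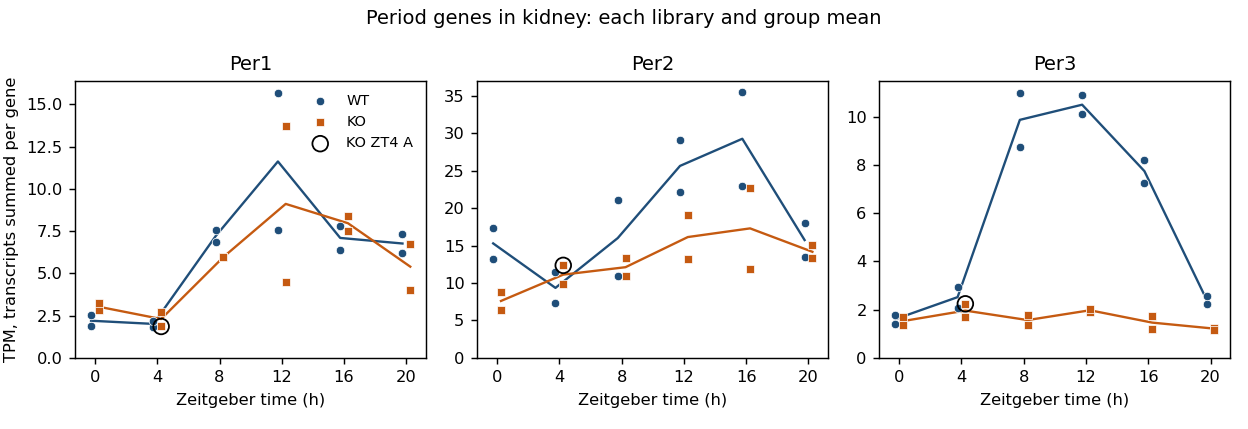
TPM of Per1, Per2 and Per3 (transcripts summed) against zeitgeber time in hours, 1 point per library with lines through the 2-library means; blue circles are WT, orange squares KO, and the ring marks the library labelled KO ZT4 A. KO Per3 stays between 1.16 and 2.24 TPM at all times while WT Per3 reaches 10.98, and the Per1 courses of both genotypes run close together.

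Differences were tested on log2(TPM + 0.1) with limma over the 12874 genes that averaged 1 TPM or more, and a gene was called at a Benjamini-Hochberg adjusted p under 0.05. With time in the model, Per3 was lower in KO by 1.44 on average (log2 change -1.44, SE 0.25, limma adjusted p = 7.97e-05). Calls in this test were common: 60.9% of genes were called in either direction and 10% were called lower in KO, and the median change of all genes was 0.15. The change depended on the time of day. Per3 was lower by 2.59 at ZT8 (log2 change -2.59, SE 0.21, limma adjusted p = 1.4e-05), where 14.6% of genes were called. The change was -2.36 at ZT12 (adjusted p = 1.4e-05, 38.2% of genes called) and -2.35 at ZT16 (adjusted p = 8.0e-05, 21.5% called). At ZT0 it was -0.07 (adjusted p = 0.858, 13.4% called) and at ZT4 -0.34 (adjusted p = 0.468). At ZT4 0% of genes were called by limma, 0 of 12874, with 1637 at an unadjusted p under 0.05. Without the library KO ZT4 A the Per3 change at ZT4 was -0.54 (adjusted p = 0.157), with 11.6% of genes called. At ZT20 the Per3 change of -0.93 passed (adjusted p = 0.0305, 3.72% called, or 8.58% without KO ZT4 A). It kept its size, -0.84 to -1.03, but did not pass when any 1 of the 4 ZT20 libraries was left out (adjusted p 0.0983 to 0.191), and with no filter on low values its adjusted p was 0.0556. The shares of genes called at single times moved by over 1.5 times with 1 library left out, whereas the Per3 calls at ZT8, ZT12 and ZT16 held in 24 of 24 such fits.

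**Figure D2:**
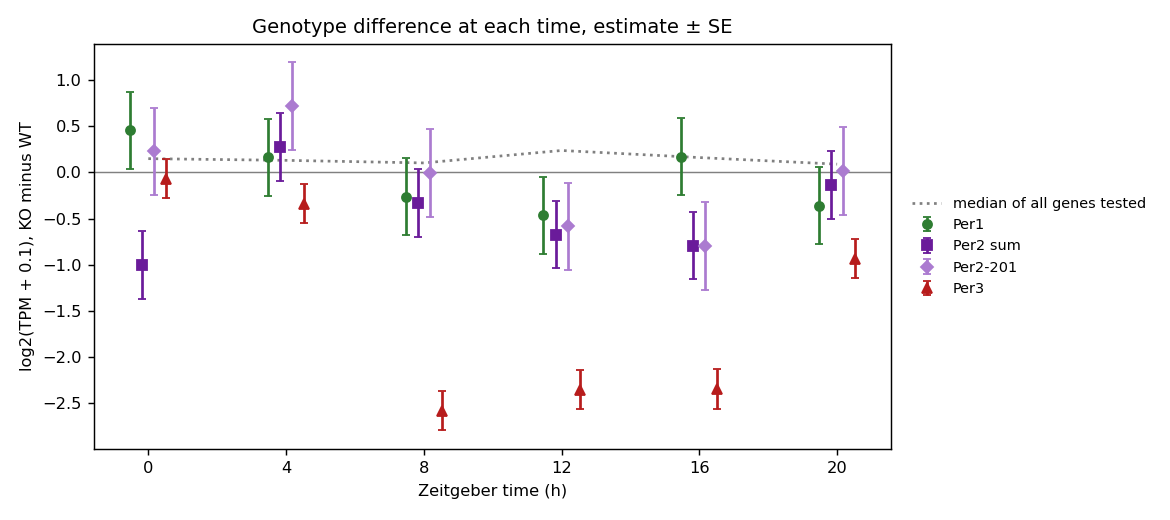
KO minus WT on the log2(TPM + 0.1) scale at each zeitgeber time in hours for Per1, the Per2 gene sum, the full-length transcript Per2-201 and Per3, as limma estimates with SE bars; the dotted line is the median of all genes tested. Per3 lies near 0 at ZT0 and at -2.59, -2.36 and -2.35 at ZT8, ZT12 and ZT16.

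The loss was one of rhythm as well as of level. A 24-hour cosine fitted to WT Per3 had a peak-to-trough size of 2.97 log2 units (SE 0.21) and a peak at ZT 11.7 (SE 0.27 h), and it was called rhythmic (limma adjusted p = 3.51e-08), as were 13.7% of genes in WT. In KO the fitted size was 0.48 (SE 0.21, adjusted p = 0.326), and 3.64% of genes were called rhythmic. The difference in rhythm between genotypes was called for Per3 (limma adjusted p = 5.87e-05), as it was for 81 genes, or 0.629%. The WT fit of Per3 ranked 106th of 12874 genes in size and its KO fit 2035th. Without the library KO ZT4 A the Per3 level change was -1.53 (adjusted p = 3.76e-05) and the difference in rhythm was again called (adjusted p = 7.23e-05).

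**Figure D3:**
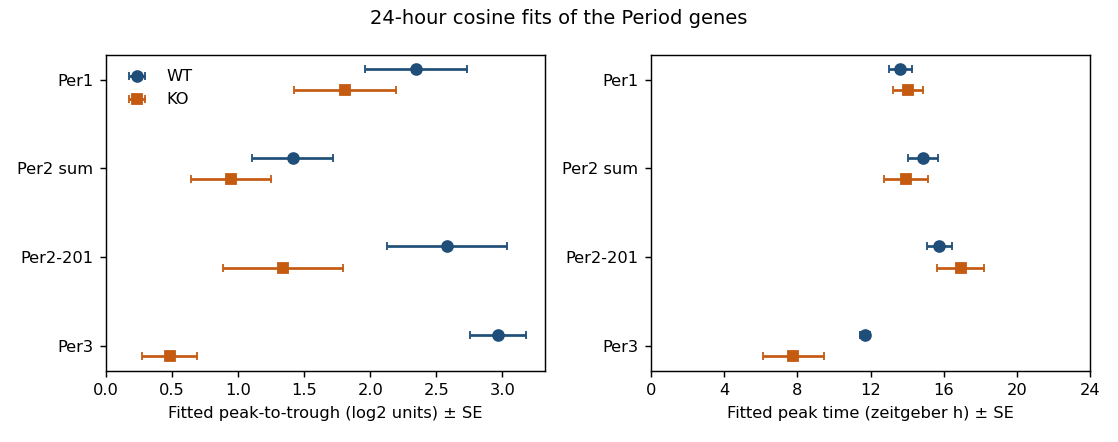
Peak-to-trough size in log2 units (left) and peak time in zeitgeber hours (right) of 24-hour cosine fits for Per1, the Per2 sum, Per2-201 and Per3, with SE bars, blue circles for WT and orange squares for KO. Per3 drops from 2.97 to 0.48 log2 units, while the Per1 bars lie at 2.35 and 1.81 with peaks at 13.6 and 14.0 h.

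Per3 RNA was carried by a pair of annotated transcripts that moved together. Per3-201 (21 exons, 5999 bases, coding) and Per3-204 (7 exons, 3663 bases, annotated as a processed transcript) made up medians of 38.9% and 46.95% of Per3 TPM. Of the bases of Per3-204, 96.3% lie in exons 16 to 21 of Per3-201, so reads there must be divided between the 2 by estimation. Per3-201 held 3.35 and 4.78 TPM in WT and 0.489 and 0.821 in KO at ZT8, and 5.14 and 3.44 against 0.658 and 0.738 at ZT12. Per3-204 held 4.31 and 5.18 TPM in WT and 0.712 and 0.758 in KO at ZT8, and 4.70 and 5.64 against 0.816 and 0.862 at ZT12. At both times every KO library lay below every WT library for each transcript. With 2 libraries in each group such separation is frequent without any genotype difference. Its share over all transcripts was not computed.

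Over all times Per3-201 changed by -1.53 (SE 0.26, limma adjusted p = 1.75e-04) and Per3-204 by -1.40 (SE 0.25, adjusted p = 2.43e-04), in a fit of 26725 transcripts of which 38.8% were called. Both were called lower at ZT8, ZT12 and ZT16 with changes of -2.20 to -2.53, times at which 5.56%, 16.7% and 7.46% of transcripts were called. Neither was called at ZT0, ZT4 or ZT20, where 3.42%, 0.00748% and 0.67% of transcripts were. Without the library KO ZT4 A, Per3-201 was called lower at ZT20 (-1.33, SE 0.33, adjusted p = 0.0484; 2.64% of transcripts called), and its ZT4 change was -1.04 (adjusted p = 0.187) in place of -0.67. Both were rhythmic in WT (6.86% of transcripts called), with peak-to-trough sizes of 2.96 and 2.85, and neither was called rhythmic in KO (1.2% called). The difference in rhythm was called for both (adjusted p = 0.00948 for Per3-201 and 3.38e-04 for Per3-204; 0.266% of transcripts called). The share of Per3 held by each transcript was not called for a genotype change (1.73% of 19584 transcripts called) or for a WT rhythm (0.572% called). With a pseudocount of 1 the Per3-204 share was called for both, at 0.22 (adjusted p = 0.0307) and 0.46 (adjusted p = 0.0452).

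Per1 was called rhythmic in both genotypes, and its KO call depended on single libraries. Per1 (ENSMUSG00000020893, GRCm38 chromosome 11, 69095217 to 69109960, plus strand) encodes a repressor that several signalling pathways can induce quickly. The WT libraries held 1.87 and 2.52 TPM at ZT0, 1.82 and 2.19 at ZT4, 6.85 and 7.56 at ZT8, 15.7 and 7.55 at ZT12, 6.38 and 7.81 at ZT16, and 7.33 and 6.20 at ZT20. The KO libraries held 2.82 and 3.22 TPM at ZT0, 1.85 and 2.74 at ZT4, 5.97 and 5.96 at ZT8, 13.7 and 4.51 at ZT12, 7.53 and 8.40 at ZT16, and 6.76 and 4.03 at ZT20. In each genotype the 4 libraries at ZT0 and ZT4 were below every library of the other times. At ZT12, where both means peaked, library A was higher than B in both genotypes. The genotypes overlapped at ZT4, ZT12, ZT16 and ZT20, and stood apart with KO higher at ZT0 and KO lower at ZT8. Per1 was called at neither of those times, as given below. Over its 12 group means in order, neighbours stood apart at 3 of 11 steps, 1 of which set the groups of ZT0 and ZT4 below all others.

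Per1 was not called for a difference in level (log2 change -0.05, SE 0.16, limma adjusted p = 0.809) or at any single time, with changes from -0.46 at ZT12 to 0.46 at ZT0. At ZT4 the change was 0.17, or 0.43 without the library KO ZT4 A (adjusted p = 0.574). Without the library KO ZT12 A its ZT12 change was -1.25 and was called (adjusted p = 0.0339). Its fitted rhythm had a size of 2.35 (SE 0.39) and a peak at ZT 13.6 in WT (limma adjusted p = 0.00139), and a size of 1.81 (SE 0.39) and a peak at ZT 14.0 in KO (adjusted p = 0.0279). The KO call was not held when any 1 of 4 KO libraries (ZT0 B, ZT4 A, ZT4 B or ZT12 A) was left out, with adjusted p-values of 0.0512 to 0.0638 and sizes of 1.55 to 1.88, nor when KO was fitted alone (adjusted p = 0.131). The difference in Per1 rhythm between genotypes was not called (size 0.58, adjusted p = 0.821), which does not show that the rhythms were alike.

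Of the 6 annotated Per1 transcripts, 3 had a mean of at least 1 TPM. Per1-201, Per1-203 and Per1-206 start at different first exons, and 99.2% to 100% of the bases of the latter 2 lie within exons of Per1-201. Their separate values varied widely, and Per1-201 was estimated at 0.0002 to 4.79 TPM over the 24 libraries. Whether the shared bases bear on that spread was not tested. Per1-206, which starts near the downstream window printed above, was rhythmic in WT (size 4.67, SE 0.88, peak at ZT 12.5, limma adjusted p = 0.00691). Its WT libraries held 8.42 and 3.42 TPM at ZT12, 3.80 and 3.11 at ZT16, and 0.015 and 1.26 at ZT4. In KO its size was 3.44 and was not called (adjusted p = 0.106). None of the 3 was called for a genotype change in level, in rhythm or in share, and none for a share rhythm in WT.

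Per2 gave different answers for the gene sum and for its full-length transcript. Per2 (ENSMUSG00000055866, GRCm38 chromosome 1, 91415982 to 91459324, minus strand) has 2 annotated transcripts. Per2-201 is the coding transcript, with 23 exons and 5833 bases. Per2-202 is a processed transcript with 3 exons and 231 bases, of which 90.0% lie in exons 3 and 4 of Per2-201. As TPM divides by length, the short transcript made up a median of 66.3% of Per2 TPM (28.4% to 92.2%). Weighted by annotated length, which gives no exact share of reads, it made up 7.22% (1.54% to 31.9%). A summed Per2 TPM therefore leans on the few reads assigned to 231 bases.

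As a sum, Per2 held 17.3 and 13.3 TPM in WT at ZT0, 11.4 and 7.28 at ZT4, 10.96 and 21.1 at ZT8, 29.1 and 22.2 at ZT12, 35.55 and 23.0 at ZT16, and 13.4 and 18.1 at ZT20. The KO libraries held 6.38 and 8.82 TPM at ZT0, 12.4 and 9.88 at ZT4, 10.95 and 13.3 at ZT8, 19.1 and 13.2 at ZT12, 22.7 and 11.9 at ZT16, and 15.05 and 13.3 at ZT20. KO lay below WT without overlap at ZT0, ZT12 and ZT16, which with 2 libraries in each group is weak evidence of a difference. Over the 12 group means in order only 1 of 11 neighbouring steps showed no overlap. The sum was called lower in KO over all times (log2 change -0.44, SE 0.16, limma adjusted p = 0.0236, and -0.51 without the library KO ZT4 A), but at no single time (adjusted p from 0.0799 at ZT0). Its ZT4 change was 0.27, or 0.12 without that library (adjusted p = 0.876). With only coding transcripts summed the change was -0.07 and was not called (adjusted p = 0.777), and it was also not called with no time in the model (adjusted p = 0.091). The Per2 sum was rhythmic in WT (size 1.41, SE 0.30, peak at ZT 14.9, adjusted p = 0.0113) and was not called in KO (size 0.95, SE 0.30, adjusted p = 0.146). The difference in rhythm was not called (adjusted p = 0.760).

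In WT Per2-201 had a larger fitted size than the sum, 2.58 against 1.41. In KO the sizes were 1.34 and 0.95, or 0.71 and 1.10 without the library KO ZT4 A. The share of Per2 held by Per2-201 was not called rhythmic in WT (limma adjusted p = 0.464). For Per2-201 the WT libraries held 4.65 and 4.44 TPM at ZT0, 1.19 and 1.20 at ZT4, 3.10 and 5.30 at ZT8, 9.27 and 7.56 at ZT12, 12.3 and 10.3 at ZT16, and 6.26 and 6.05 at ZT20. Its KO libraries held 4.52 and 6.32 TPM at ZT0, 0.963 and 4.15 at ZT4, 3.63 and 4.51 at ZT8, 7.70 and 4.00 at ZT12, 7.15 and 5.78 at ZT16, and 7.26 and 5.34 at ZT20. The 2 KO libraries at ZT4 stood apart: A, the library that went against its label, was just below the WT pair, and B was above it. The other 11 KO libraries lay between 3.63 and 7.70 TPM, whereas WT spanned 1.19 to 12.3.

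Per2-201 was not called for a difference in level (log2 change -0.07, SE 0.20, limma adjusted p = 0.810). It was rhythmic in WT (size 2.58, SE 0.45, peak at ZT 15.8, adjusted p = 0.00417), and its KO fit of 1.34 (SE 0.45) was not called (adjusted p = 0.265). Without the library KO ZT4 A the KO size was 0.71 (SE 0.36) and the difference in rhythm had an unadjusted p of 0.00265 and an adjusted p of 0.188, so it was not called in either case (adjusted p = 0.633 with that library). Per2-201 was then called higher in KO at ZT4, by 1.72 log2 units (SE 0.37, adjusted p = 0.0318; 2.26% of transcripts called), against 0.72 (adjusted p = 0.683) with all libraries. That call rests on 1 KO library, B, whose spread was assumed to be that of the other groups.

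**Figure D4:**
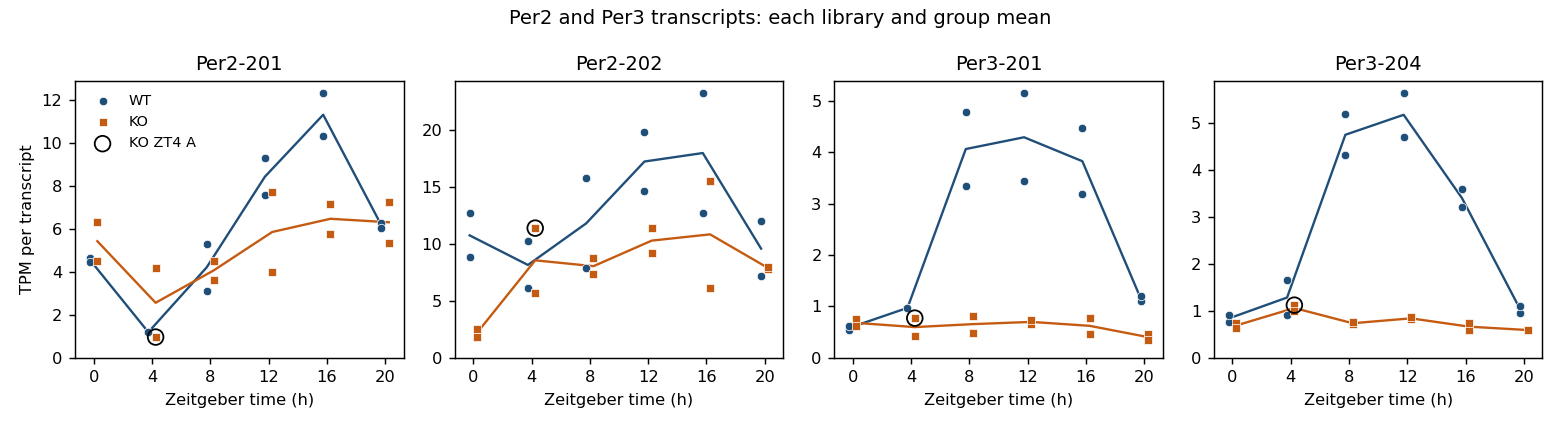
TPM of Per2-201, Per2-202, Per3-201 and Per3-204 against zeitgeber time in hours, 1 point per library with lines through the 2-library means; blue circles are WT, orange squares KO, and the ring marks KO ZT4 A. In KO Per3-201 lies between 0.339 and 0.821 TPM and Per3-204 between 0.586 and 1.12. KO Per2-202 at ZT0 lies at 1.85 and 2.50 TPM under WT values of 12.7 and 8.83, and the ringed library has 0.963 TPM of Per2-201.

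The short transcript Per2-202 was called for level, as the sum was. It was called lower in KO over all times (log2 change -0.74, SE 0.24, limma adjusted p = 0.0181) and at ZT0 (-2.24, SE 0.48, adjusted p = 0.0301). Of all transcripts 38.8% were called for level and 3.42% at ZT0. As 90.0% of its 231 bases lie in exons of Per2-201, reads there must be divided between the 2 by estimation. At ZT0 Per2-202 held 12.7 and 8.83 TPM in WT and 1.85 and 2.50 in KO. These did not overlap, which with 2 libraries in each group is weak evidence of a difference. At that time Per2-201 was at 4.65 and 4.44 in WT and 4.52 and 6.32 in KO. Per2-202 was not called rhythmic in WT (size 1.04, adjusted p = 0.362) or in KO (1.57, adjusted p = 0.192). Its share of Per2 changed by -0.30 (SE 0.12, adjusted p = 0.256) and that of Per2-201 by 0.37 (SE 0.20, adjusted p = 0.450), neither of which was called.

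The 3 genes were then compared with each other as log2 ratios of TPM. Per3 fell relative to Per1 in KO by 1.39 log2 units (exact permutation test of genotype within time, two-sided, p = 1.29e-04, adjusted over 3 pairs 3.86e-04), with KO lower at 6 of 6 times. It fell relative to Per2 by 0.99 (exact permutation p = 0.00592, adjusted 0.00887), at 5 of 6 times. The Per2 to Per1 ratio changed by -0.40 (exact permutation p = 0.117, adjusted 0.117), at 4 of 6 times. In WT the Per3 to Per2 ratio followed a cosine with a size of 2.27 (permutation p = 0.00217, adjusted over 6 tests 0.0130) and the Per3 to Per1 ratio one of 1.45 (p = 0.0164, permutation, adjusted 0.034). The fitted WT peaks were at ZT 11.7 for Per3, 13.6 for Per1 and 14.9 for Per2. In KO the Per3 to Per1 ratio had a size of 1.90 (permutation p = 0.017, adjusted 0.034), which did not pass without the library KO ZT4 A (adjusted 0.114). The Per2 to Per1 ratio over time had adjusted permutation p-values of 0.234 in both genotypes and the Per3 to Per2 ratio one of 0.0978 in KO. Both passed in KO with Per2-201 in place of the sum (adjusted permutation p = 0.0434 each). That setting was not planned and was run only with the library KO ZT4 A included. There Per2-201 was at 0.963 TPM, against 3.63 to 7.70 in the other 11 KO libraries, so these 2 calls may rest on it.

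Correlations over libraries describe how far the Period genes moved together. Pearson's r of Per1 and Per3 over log2(TPM + 0.1) was 0.79 in the 12 WT libraries and -0.19 in the 12 KO libraries, and r of Per1 and Per2 was 0.63 and 0.66. Over all 24 libraries the genes most like Per3 were Dbp (r = 0.92), Tef (0.92) and Ciart (0.91), of which Dbp and Tef encode D-box activators and Ciart a repressor of BMAL1 with CLOCK. Those most like Per1 were Pim3 (0.88), a kinase, Tob2 (0.85) and Ccdc85b (0.85). Those most like Per2 were Dynll2 (0.80), a dynein light chain, Mknk2 (0.79), a kinase, and Slc13a3 (0.77), a dicarboxylate transporter of the tubule. These libraries share genotypes and times, which both sides of each r follow, so the values are descriptions.

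Other clock genes moved in both directions in KO. The list of 18 clock partners, like the lists below, was chosen with earlier results of these data known. Of the 18, 16 had a mean of at least 1 TPM. Of these 6 were called higher in KO, 6 lower and 4 neither. When libraries were scaled by median ratios, so that the typical gene has no change, 6 were higher and 7 lower. With that scaling 2761 of 12861 genes were higher and 2913 lower over all genes. Without it 50.9% were called higher and 10% lower. The median change of the partners was 0.05, against 0.15 over all genes. Npas2, a partner of CLOCK, was higher by 3.26 log2 units (limma adjusted p = 1.95e-05) and Cry1, which binds Period proteins, by 2.01 (adjusted p = 7.85e-05). Nr1d2, a repressor with a fitted WT peak at ZT 10.3, was lower by 2.72 on that scale (log2 change -2.72, adjusted p = 1.66e-06), and Dbp had a change of -1.64 (adjusted p = 0.0111). Of the 16, 13 were called rhythmic in WT and 0 in KO (limma; 3 at an unadjusted p under 0.05), where 13.7% and 3.64% of all genes were. The difference in rhythm was called for 6 (0.629% of all genes), or for 10 without the library KO ZT4 A (0.87%). Whether the KO rhythm of Per1 differed from that of these partners was not tested.

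Genes whose products modify or degrade Period proteins had small changes. Of 14, all tested, 8 were called higher (9 without the library KO ZT4 A) and 0 lower in KO (limma; 1 lower at an unadjusted p under 0.05), and under median-of-ratios scaling 3 were higher and 3 lower. The 8 of 14 stand beside 50.9% called higher over all genes. Their median change was 0.13, against 0.15 over all genes. That scaling moved the median of all genes to -0.0019 and the share of called genes that were higher from 83.6% to 48.7%. Under it 2761 of 12861 genes were higher and 2913 lower. Per1, Per2 and Per3 had changes of -0.20, -0.60 and -1.58 under that scaling, with only Per2 and Per3 called. Csnk1e, a kinase of Period proteins, had a change of 0.26 (adjusted p = 0.0202) and Csnk1d, its relative, one of 0.18 (adjusted p = 0.221). Usp2, a deubiquitinase, was rhythmic in WT (size 1.25, peak at ZT 12.9, adjusted p = 0.0047), and 3 of the 14 were called rhythmic in WT and 0 in KO by limma (2 at an unadjusted p under 0.05), beside 13.7% and 3.64% of all genes.

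Lists of genes that answer to pathways known to induce Per1 or Per2 were mixed. Over all genes 50.9% were called higher and 10% lower in KO, 13.7% rhythmic in WT (16.6% without the library KO ZT4 A) and 3.64% rhythmic in KO. Under median-of-ratios scaling 2761 of 12861 genes were higher and 2913 lower. Of 8 glucocorticoid-responsive genes 3 were higher and 3 lower in KO (2 and 4 under median-of-ratios scaling), 1 was rhythmic in WT, or 3 without the library KO ZT4 A, and 1 in KO. Tsc22d3 was rhythmic in WT (size 2.11, peak at ZT 16.8, adjusted p = 0.00421) and Errfi1, an inhibitor of epidermal growth factor receptor signalling, in KO (size 1.11, peak at ZT 11.4, adjusted p = 0.0218). Of 7 tested CREB-responsive genes 1 was higher and 1 lower (1 and 2 under that scaling), and 2 were rhythmic in WT and 0 in KO by limma (2 at an unadjusted p under 0.05). Sik1, a kinase that restrains CREB signalling, was lower in KO by 0.94 (log2 change -0.94, limma adjusted p = 6.44e-06).

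Some heat shock genes were called rhythmic in KO. Of 10 tested, 2 were higher and 4 lower in KO (1 and 5 under median-of-ratios scaling), 5 were rhythmic in WT and 2 in KO. The shares over all genes without that scaling were 50.9%, 10%, 13.7% and 3.64% in that order. With it 2761 of 12861 genes were higher and 2913 lower. The 2 called rhythmic in KO were Hsp90aa1 and Hsp90ab1. Hsp90aa1 had sizes of 1.38 in WT and 0.87 in KO (limma adjusted p = 0.0171 in KO). Hsp90ab1 had 0.67 and 0.51 (adjusted p = 0.0406 in KO). Both encode HSP90 chaperones, and both peaked at ZT 21.4 to 21.5 in WT and at ZT 19.3 to 19.6 in KO, later than Per1. The difference in rhythm was called for 0 of the 10 by limma (2 at an unadjusted p under 0.05).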

How the data were processed

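The authors deposited TPM per transcript for 24 kidney RNA libraries. Kallisto 0.42.4 and mm10/GRCm38 are named per the submitters' processing notes, and the transcript index is not given in the sources used here. Of 88198 transcripts, 86119 were matched by Ensembl identifier to GENCODE M21 (GRCm38) and summed per gene. The 2079 unmatched held 1.35% to 2.24% of TPM. The 20 4C-seq libraries were not used here. TPM keeps no depth, so no counting interval was computed.

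limma 3.58.1 (R 4.3.3, eBayes with trend and robust options) was fitted to log2(TPM + 0.1), so fold changes of low genes are understated, over 12874 genes or 26725 transcripts with a mean of at least 1 TPM. Models held genotype with time as a factor, 12 group means, or a 24-hour cosine and sine per genotype with 1 shared spread. p-values were adjusted by Benjamini-Hochberg over all features, within each time for single times. Ratios of member genes were tested by permutation (numpy 2.4.6), exactly over 46656 arrangements for genotype and with 100000 resamples for time. The fits were also run on simulated data with independent normal noise for each gene. That setting held no shift of all genes and no library that went against its label, so it does not cover them. Its outcome is not given here.

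The rule named every Period transcript with a mean of at least 1 TPM, Arntl, the 3 genes most correlated with each Period gene, and 2 to 4 genes of each list. Members and lists were chosen with earlier results of these data known. Genes naming the library that went against its label (Cry1, Nr1d1) were chosen after their values were seen. Alternatives covered pseudocount, filter, scaling, replicate block, coding transcripts only, separate fits and each library left out.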

Additional observations from a re-analysis of the deposited data

Results flagged for a closer look

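The size of the difference in rhythm between WT and KO, measured as the peak-to-trough size of the difference of both fitted cosines, was 2.75 log2 units for the Per3 sum, 2.75 for Per3-201 and 2.76 for Per3-204. Each passed the test of the difference itself (limma adjusted p = 5.87e-05, 0.00948 and 3.38e-04). The transcripts share most of their bases, so these are not independent of each other. Leaving out each library in turn gave 2.65 to 2.89 for the Per3 sum, called in 24 of 24 fits.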

How the results depend on the processing

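Over the pseudocounts, filters, scaling and libraries left out that were run, the level change and difference in rhythm of Per3 and the WT rhythms of Per1, Per2 and Per3 were called each time. Per3, at a mean under 5 TPM, was not tested with the stricter filter. The replicate letter was run as a replicate block. Deviations of libraries with the same letter correlated at -0.32 to 0.34 between groups (median 0.02). A median over all pairs of groups cannot exclude a pairing or batch shared by some of them. The block gave -1.44 for Per3 (limma adjusted p = 1.18e-04), -0.44 for Per2 (0.0244), -0.05 for Per1 (0.810), and 7873 genes called for level in place of 7844.

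The Per2 level change was -0.0699 with coding transcripts only (adjusted p = 0.777), 0.0013 with KO ZT4 A left out as well (chosen after seeing the data) and -0.44 with no time in the model (0.091). The Per1 rhythm in KO was 1.81 with KO fitted alone (adjusted p = 0.131), 1.57 with coding transcripts only and KO ZT4 A left out (0.0537), and 1.55 to 2.16 over single libraries left out. The Per1 level ranged from -0.12 to 0.068 over those fits. Genes called for KO rhythm numbered 468, against 295 with no filter, 12 with KO alone and 272 to 620 with 1 library left out; WT rhythm 1761, against 2843 with WT alone; difference in rhythm 81, against 43 with no filter, 23 with time as a factor and 37 to 112 with 1 library left out.

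The number of genes called at a single time rested on single libraries. With 1 library left out it ran from 1 (without KO ZT0 A) to 2401 at ZT0 (1731 with all), 0 to 1489 at ZT4 (0), 74 (without KO ZT8 A) to 2410 at ZT8 (1877), 2129 (without KO ZT12 A) to 5357 at ZT12 (4914), 573 (without WT ZT16 A) to 3282 at ZT16 (2766) and 1 (without WT ZT20 B) to 1104 at ZT20 (479). The highest counts came without KO ZT4 A, or without KO ZT4 B at ZT8. Median-of-ratios scaling gave 3075 at ZT12. Transcripts called without KO ZT4 A numbered 605 at ZT4 (2 with it) and 705 at ZT20 (179).

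Signs of changes that were not called also turned. At ZT16 Per1 was -0.0028 under median-of-ratios scaling. With coding transcripts only, with or without KO ZT4 A, Per2 was 0.23 at ZT0 and 0.018 at ZT20 and Per3 0.19 at ZT0. With a pseudocount of 1 the Per1-206 change was -0.0659 over all times and -0.0588 at ZT4, and share changes were 0.0309 for Per1-201, -0.0092 for Per1-206 and 0.19 for Per3-201. Leaving out 1 library gave ranges that cross 0 for Per1 at ZT4 (-0.10 to 0.43), ZT12 (-1.25 to 0.33) and ZT20 (-0.73 to 0.0038), Per2 at ZT4 (-0.0452 to 0.59), ZT8 (-0.80 to 0.14) and ZT20 (-0.35 to 0.0744), and Per3 at ZT0 (-0.23 to 0.0919). Without KO ZT4 A, Per2-201 was 0.0013 over all times and Per2-202 -0.455 at ZT4. The causes were not tested.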

Other observations

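The minor Period transcripts were low in all 24 libraries. Per1-202, a coding transcript with an upstream first exon, held 0.294 to 1.47 TPM in WT and 0.235 to 1.76 in KO, and Per3-205, a retained intron transcript, 0.096 to 0.558 TPM in WT and 0.0799 to 0.283 in KO. Per1-204 was listed at 0 in 18 libraries, Per1-205 in 12, Per3-202 in 9 and Per3-203 in 6. None reached a mean of 1 TPM, so none was tested.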
